A study of Homo sapiens with 8 samples.

Results

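The comparison reported here is the difference between 2 siRNAs in the response to doxorubicin, the interaction of a design with 4 groups of 2 arrays. It was formed for every measured feature as the doxorubicin response with TAF3 siRNA minus the doxorubicin response with control siRNA, and it used 8 of the 8 arrays. HCT116, an established human colon carcinoma line with an intact p53 gene, was transfected with an siRNA directed at TAF3 or with a non-targeting siRNA as the control. From 48 hours after transfection the cells were left without drug or given doxorubicin at 0.5 µM for 24 hours, so all 4 groups carry a transfected siRNA and no group was left untransfected. The labels name 1 TAF3 siRNA treatment and do not give its sequence, so effects of that siRNA on other RNAs cannot be told apart from those of TAF3. RNA was read on Illumina HumanHT-12 v3 BeadChips, where each probe gives the brightness of labelled RNA made with an oligo(dT) primer. The untreated arrays carry the replicate numbers 1 and 3 and the doxorubicin arrays 2 and 4. The labels do not say whether replicate arrays came from separate cultures. The p-values therefore reflect array-to-array spread alone, all of which may be technical.

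Doxorubicin traps topoisomerase II on cleaved DNA and inserts between base pairs, and the breaks activate the kinase ATM and the transcription factor p53. In HCT116 cells p53 then switches on genes for cell cycle arrest, repair and cell death, while genes of replication and mitosis are repressed indirectly, largely through CDKN1A and the RB and DREAM complexes. TAF3 is a subunit of TFIID, the general factor that binds core promoters and starts the assembly of the RNA polymerase II machinery. Its PHD finger binds histone H3 trimethylated at lysine 4, a mark of active promoters, and the series title names this contact and selective gene activation as the subject.

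Of 16348 features, 6 passed the interaction test at a limma adjusted p under 0.05 (0.0367%), 2 with a more positive response under TAF3 siRNA (0.0122%) and 4 with a more negative one (0.0245%). The peptidylarginine deiminase gene PADI4, the tetrahydrobiopterin regulator gene GCHFR and the unnamed probes ILMN_1661628 and ILMN_1874901 rose with doxorubicin under control siRNA and responded less under TAF3 siRNA. The glycolytic gene ALDOC fell with doxorubicin under control siRNA, and its response was less negative under TAF3 siRNA. The mRNA decay gene ZFP36 fell under one siRNA and rose under the other. Far more features, 2424 (14.8%), had an unadjusted p under 0.05, of which 1146 (7.01%) were higher and 1278 (7.82%) lower. These unadjusted counts are the background against which the gene groups below are read. On log2 of the deposited signals and after median centring, limma called 0 features higher and 1 lower, with 572 higher and 1733 lower in the first case and 587 higher and 1733 lower in the second at an unadjusted p under 0.05.

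The 4 named genes that passed are shown by their promoters, because TFIID, of which TAF3 is a part, assembles there. Each sequence holds the 250 bases before the RefSeq transcription start, 5′ to 3′ on the gene's strand, in the build GRCh38.p14. They lie at chr1:17307947-17308196 on the plus strand for PADI4, chr17:28576896-28577145 on the minus strand for ALDOC, chr19:39406597-39406846 on the plus strand for ZFP36 and chr15:40763818-40764067 on the plus strand for GCHFR. Capitals mark the letters TATAA, the start of a TATA box, and ACGTG, a form of the core of the hypoxia response element, each searched on both strands. Other forms of that core were not searched.
PADI4: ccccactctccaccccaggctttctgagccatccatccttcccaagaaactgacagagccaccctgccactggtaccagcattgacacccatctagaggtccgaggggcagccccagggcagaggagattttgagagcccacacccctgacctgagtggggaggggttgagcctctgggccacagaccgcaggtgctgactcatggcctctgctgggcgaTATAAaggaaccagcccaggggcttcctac
ALDOC: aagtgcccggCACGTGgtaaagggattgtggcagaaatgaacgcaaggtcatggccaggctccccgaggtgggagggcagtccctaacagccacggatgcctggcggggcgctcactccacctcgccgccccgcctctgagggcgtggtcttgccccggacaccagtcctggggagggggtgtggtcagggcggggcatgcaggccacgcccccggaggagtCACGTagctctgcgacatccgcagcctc
ZFP36: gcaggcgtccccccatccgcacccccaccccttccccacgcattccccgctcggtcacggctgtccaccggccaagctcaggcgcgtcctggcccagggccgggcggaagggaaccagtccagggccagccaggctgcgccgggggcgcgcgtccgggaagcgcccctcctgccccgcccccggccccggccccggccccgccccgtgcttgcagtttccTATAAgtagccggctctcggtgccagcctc
GCHFR: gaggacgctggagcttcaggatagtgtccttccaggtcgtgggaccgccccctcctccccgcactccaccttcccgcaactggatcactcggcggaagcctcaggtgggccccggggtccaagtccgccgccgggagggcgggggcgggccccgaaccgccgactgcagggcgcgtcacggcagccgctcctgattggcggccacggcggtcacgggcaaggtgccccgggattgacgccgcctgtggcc
PADI4 and ZFP36 each hold TATAA from 30 to 26 bases before the start, and in PADI4 the longer TATAAA ends at base -25. ALDOC holds ACGTG on both strands at overlapping positions between -240 and -235 and again on the minus strand from -28 to -24. GCHFR holds neither, and its CCAAT lies on the minus strand from -57 to -53. Among 35116 RefSeq promoters of this length, 18.9% hold TATAA, 10.7% TATAAA, 18.5% ACGTG and 32.0% CCAAT. These shares count the letters at any position and on either strand, so they are not shares for the positions given above. Of the 12 named genes with the smallest p among those that missed the threshold in the positive direction, 9 had a promoter entry, 3 of them with TATAA and 4 with ACGTG. Of the 12 in the negative direction, 10 had an entry, 2 with TATAA and 2 with ACGTG.

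Of 11 colon epithelium markers, 8 lay above background on all arrays, led by EPCAM and KRT19, while CDX1 and LGALS4 were above background on none and VIL1 on 1. PTPRC, CD3D and CD3E of leukocytes, COL1A2, COL3A1, DCN, LUM and POSTN of fibroblasts, and CDH5 and KDR of endothelium were above background on no array. COL1A1 and PDGFRA of the fibroblast list, PECAM1 of the endothelial list and CD68 of the leukocyte list were above background on all 8 arrays, LYZ on 6, CD14 on 5, VWF and MS4A1 on 4, PDGFRB on 3 and TEK on 1. The 7 leukocyte markers on the array summed to signals of 975 to 983 with doxorubicin and 1533 to 1564 without it under control siRNA, and to 1076 to 1426 and 902 to 1273 under TAF3 siRNA, with the lysosomal protein gene CD68 as the brightest. Between 17428 and 19533 probes lay above background per array, and replicate arrays correlated at 0.980 to 0.994. The smallest of these correlations was that of the untreated TAF3 siRNA arrays, and the median SD between replicates was 0.151 there, 0.145 with TAF3 siRNA and doxorubicin, 0.127 in untreated control cells and 0.101 with control siRNA and doxorubicin.

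The siRNA target could not be checked at the RNA level in untreated cells, and only near background with doxorubicin. Of the TAF3 probes, ILMN_1742524 lay below background on every array. ILMN_1807176 lay above it only on the control siRNA arrays with doxorubicin, at signals of 89.3 and 101. On the TAF3 siRNA arrays with doxorubicin its signals were 76.6 and 67.3, below background. The signals above background lie little above the thresholds of 81.4 to 87.4, so the size of any fall is unknown. The fitted TAF3 interaction was -0.16 ± 0.23 on the log2 scale (limma adjusted p = 0.818), with only a bound in the 3 other groups.

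PADI4 encodes the enzyme that converts arginine to citrulline in histones, and it is a known p53 target. Its probe signals were 69.4 and 75.5 untreated and 998 and 806 with doxorubicin on the control siRNA arrays, and 79.7 and 68.6 untreated and 97.9 and 75.0 with doxorubicin on the TAF3 siRNA arrays. Both control siRNA arrays with doxorubicin stood far above all other arrays, and only 1 of the 6 others was above background. The response with control siRNA was at least 10.2-fold, since untreated cells gave only a bound. On the log2 scale the fitted response was 3.54 with control siRNA (adjusted p = 0.000268) and 0.19 with TAF3 siRNA (adjusted p = 0.614). The interaction was -3.35 ± 0.27 (SE from 4 residual degrees of freedom and a moderated variance, n = 2 arrays per group, limma adjusted p = 0.00883), with a 95% interval of -3.95 to -2.75.

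ALDOC encodes aldolase C, a glycolytic enzyme whose gene is induced in hypoxia. Its signals were 6869 and 4863 untreated and 675 and 710.3 with doxorubicin on the control siRNA arrays, and 2248 and 3663 untreated and 2844 and 1999.6 with doxorubicin on the TAF3 siRNA arrays. Both treated control siRNA arrays lay far below all others, while untreated and treated values of the TAF3 siRNA arrays overlapped. Untreated levels also differed, with both control siRNA arrays above both TAF3 siRNA arrays. ALDOC fell by 3.09 on the log2 scale with control siRNA (adjusted p = 0.00112), while the TAF3 siRNA response was -0.08 (adjusted p = 0.893), and the interaction was 3.01 ± 0.34 with an interval of 2.23 to 3.78 (limma adjusted p = 0.0471).

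ZFP36 encodes tristetraprolin, which binds AU-rich elements and speeds the decay of cytokine and growth factor mRNAs. It was the one called gene that passed the test in opposite directions with the 2 siRNAs. Its signals were 2162 and 2112 untreated and 1343 and 1179.9 with doxorubicin on the control siRNA arrays, and 1950.0 and 1983 untreated and 3611 and 3868 with doxorubicin on the TAF3 siRNA arrays. The 4 untreated arrays lay close together, and the treated arrays lay below them with control siRNA and above them with TAF3 siRNA, with no overlap. It fell by 0.84 with control siRNA (adjusted p = 0.00975) and rose by 1.11 with TAF3 siRNA (adjusted p = 0.011), an interaction of 1.95 ± 0.23 with an interval of 1.44 to 2.47 (limma adjusted p = 0.0471).

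GCHFR encodes the feedback regulator of GTP cyclohydrolase 1, the enzyme that starts tetrahydrobiopterin synthesis. Its signals were 95.8 and 87.6 untreated and 357 and 384 with doxorubicin on the control siRNA arrays, and 108 and 114 untreated and 137 and 119 with doxorubicin on the TAF3 siRNA arrays. Both control siRNA arrays with doxorubicin exceeded all others by a wide margin, while the TAF3 siRNA arrays with doxorubicin lay just above those without. GCHFR rose by 1.91 with control siRNA (adjusted p = 0.000964), against 0.21 with TAF3 siRNA (adjusted p = 0.448), and the interaction was -1.69 ± 0.20 with an interval of -2.15 to -1.23 (limma adjusted p = 0.0471).

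The other called features are probes that the gene table used here does not list. ILMN_1661628 had signals of 86.1 and 82.9 untreated and 336 and 399.7 with doxorubicin on the control siRNA arrays, and 84.2 and 80.3 untreated and 96.3 and 89.3 with doxorubicin on the TAF3 siRNA arrays, and its interaction was -1.84 ± 0.21 (interval -2.33 to -1.36, limma adjusted p = 0.0471). ILMN_1874901 had signals of 77.2 and 67.9 untreated and 319 and 302 with doxorubicin on the control siRNA arrays, and 72.4 and 66.5 untreated and 78.9 and 83.3 with doxorubicin on the TAF3 siRNA arrays. Its untreated arrays lay below background with either siRNA, so the control siRNA response was at least 3.47-fold, and the interaction was -1.78 ± 0.21 (interval -2.26 to -1.30, limma adjusted p = 0.0471). Both probes showed the PADI4 pattern, high on the control siRNA arrays with doxorubicin and low on the 6 others.

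**Figure D1:**
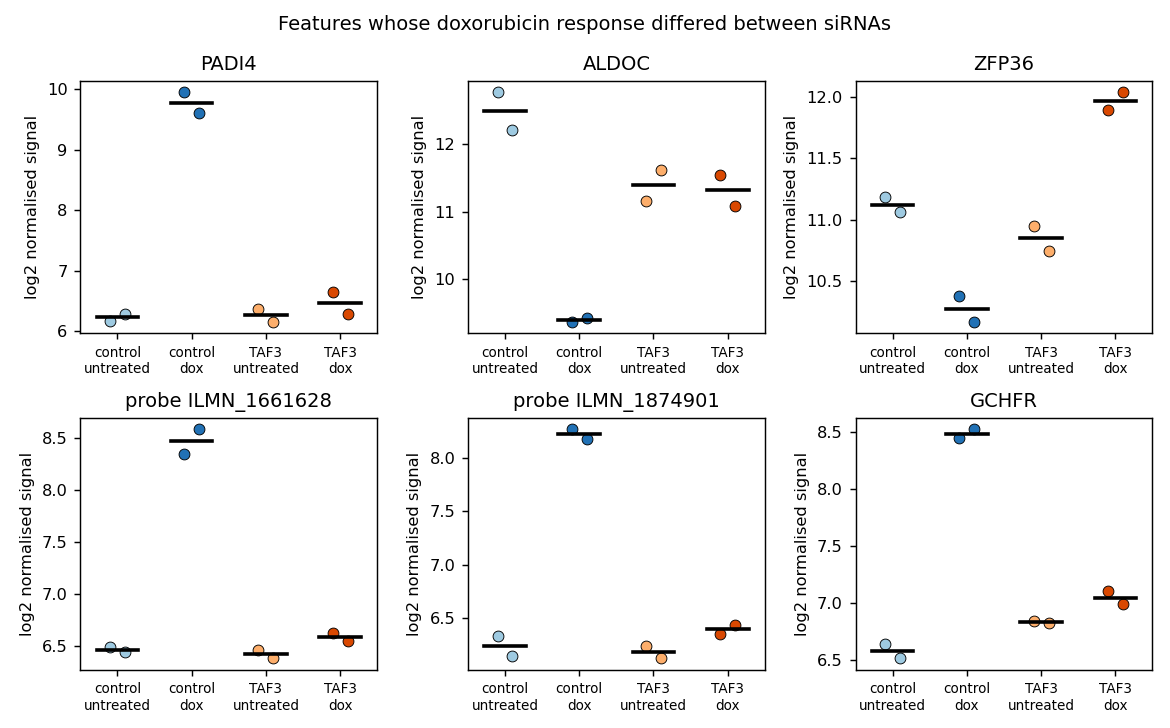
Log2 normalised signal of the 6 features that passed the interaction test, 1 panel per feature and 1 point per array, with 2 arrays in each of the 4 groups and a bar at each group mean. In PADI4, GCHFR and both unnamed probes the control siRNA arrays with doxorubicin stand alone at the top, in ALDOC they stand alone at the bottom, and in ZFP36 the treated arrays lie below the untreated ones with control siRNA and above them with TAF3 siRNA.

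The calls other than PADI4 shared an adjusted p of 0.0471 and lay at the edge of the threshold. Between 0 and 324 features were called when 1 array was left out, 0 without either control siRNA array with doxorubicin, without untreated control array 3 or without TAF3 doxorubicin array 4, against 324 without TAF3 doxorubicin array 2 and 249 without untreated TAF3 array 1. In the same 8 fits, 577 to 1521 features were higher and 732 to 1598 lower at an unadjusted p under 0.05. Over these fits PADI4 ran from -3.53 to -3.17 and ALDOC from 2.73 to 3.28. All 6 differences also kept their sign in all 16 ways of taking 1 array per group, as did 2545 features (15.6%) with a positive and 2347 (14.4%) with a negative difference.

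Among named genes with a positive difference that missed the threshold, the 12 with the smallest p had adjusted p-values from 0.0682 to 0.0733. The proto-oncogene FOS, a subunit of the AP-1 factor, had the largest value of the 12. Its signals were 1248 and 1897 untreated and 1005 and 521 with doxorubicin on the control siRNA arrays, and 473 and 462 untreated and 1972 and 1218 with doxorubicin on the TAF3 siRNA arrays. The treated arrays lay below the untreated with control siRNA and above them with TAF3 siRNA, and the difference was 3.02 ± 0.47 (limma adjusted p = 0.0733). Untreated FOS levels also differed, with both control siRNA arrays above both TAF3 siRNA arrays. KLF9, a Krüppel-like factor induced by glucocorticoids, had responses of the same signs as FOS, -0.74 and 1.06, and a difference of 1.80 ± 0.29. ANGPTL4, a secreted inhibitor of lipoprotein lipase, had responses of -0.68 with control siRNA (adjusted p = 0.0524) and 1.19 with TAF3 siRNA (adjusted p = 0.0181). All 3 of its probes had a positive difference. Over other processing choices that keep all arrays, the difference of ANGPTL4 ran from 0.85 to 1.94.

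LPIN1 encodes lipin 1, the phosphatase that makes diacylglycerol from phosphatidate. Its signals were 1687 and 2014 untreated and 778 and 644 with doxorubicin on the control siRNA arrays, and 1119.9 and 1348 untreated and 1339 and 1344 with doxorubicin on the TAF3 siRNA arrays, so both treated control siRNA arrays lay below all others. The difference was 1.73 ± 0.23 with an interval of 1.22 to 2.25 (limma adjusted p = 0.0682). PPA2, the mitochondrial pyrophosphatase, showed the same order, falling by 2.11 with control siRNA (adjusted p = 0.00154) with a difference of 1.96 ± 0.31. Other processing choices that keep all arrays gave PPA2 differences from 1.08 to 2.01. IGF2BP3, an RNA-binding protein of fetal and tumour cells, had a difference of 1.51 ± 0.23. BNIP3L, a mitophagy receptor, had responses of -0.99 and 0.68 and a difference of 1.67 ± 0.24. KDM3A, which demethylates lysine 9 of histone H3, had responses of -0.72 and 0.77 and a difference of 1.49 ± 0.22. Both are induced in hypoxia. INSIG2, which holds the sterol sensor SCAP in the endoplasmic reticulum, the ribosomal protein gene RPL13A, the olfactory receptor gene OR51B4 and the divergent transcript PPP3CA-DT complete the 12, with differences between 1.49 and 1.69.

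In the negative direction the 12 named genes with the smallest p had adjusted p-values from 0.0524 to 0.0733. For E2F2, PAXX, TK1, HELLS and FAM83D the response was above 0 under control siRNA and below it, at -0.70 or less, under TAF3 siRNA. E2F2, a transcription factor that drives entry into S phase, had signals of 1042 and 1388 untreated and 2251 and 1903 with doxorubicin on the control siRNA arrays, and 1347 and 1663 untreated and 616 and 519 with doxorubicin on the TAF3 siRNA arrays. The treated arrays lay above the untreated with control siRNA and below them with TAF3 siRNA. Its difference was -1.97 ± 0.25 with an interval of -2.53 to -1.41 (limma adjusted p = 0.0524). TK1, the S-phase thymidine kinase, had signals of 3526 and 4800.2 untreated and 10203 and 7869 with doxorubicin on the control siRNA arrays, and 2983 and 5936 untreated and 1616 and 1332 with doxorubicin on the TAF3 siRNA arrays, and a difference of -2.49 ± 0.38 (limma adjusted p = 0.0733). It rose by 1.12 with control siRNA (adjusted p = 0.023) and fell by 1.37 with TAF3 siRNA (adjusted p = 0.0264). HELLS, a chromatin remodeller of proliferating cells, had responses of 0.97 (adjusted p = 0.0385) and -1.42 (adjusted p = 0.024) and a difference of -2.39 ± 0.38. FAM83D, a protein of the mitotic spindle, had a difference of -2.00 ± 0.32, and PAXX, a factor of DNA end joining, one of -1.61 ± 0.23.

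The others rose with control siRNA at an adjusted p under 0.05 and had responses between -0.57 and 0.35 with TAF3 siRNA. KRT9, a keratin, had signals of 103 and 82.8 untreated and 396 and 396 with doxorubicin on the control siRNA arrays, and 93.0 and 91.5 untreated and 116 and 86.1 with doxorubicin on the TAF3 siRNA arrays, with a difference of -1.89 ± 0.26 (limma adjusted p = 0.0706). VSIR, an immune checkpoint protein also known as VISTA, rose by 1.99 with control siRNA (adjusted p = 0.00153) against 0.35 with TAF3 siRNA, a difference of -1.64 ± 0.24. SEMA3B, a secreted semaphorin and p53 target, had responses of 1.83 and 0.08 and a difference of -1.75 ± 0.25. HSD17B1, which makes estradiol from estrone, and RGS12, a regulator of G-protein signalling, had differences of -1.70 ± 0.24 and -1.96 ± 0.28. CTSV, the protease cathepsin V, had responses of 1.75 (adjusted p = 0.00398) and -0.57 (adjusted p = 0.245) and a difference of -2.32 ± 0.36. TNFRSF14, a receptor of the TNF family, exceeded background solely in doxorubicin-treated control siRNA cells, where it was at least 2.83-fold over untreated cells, and its difference of -1.80 ± 0.24 has only a bound in the 3 other groups.

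**Figure D2:**
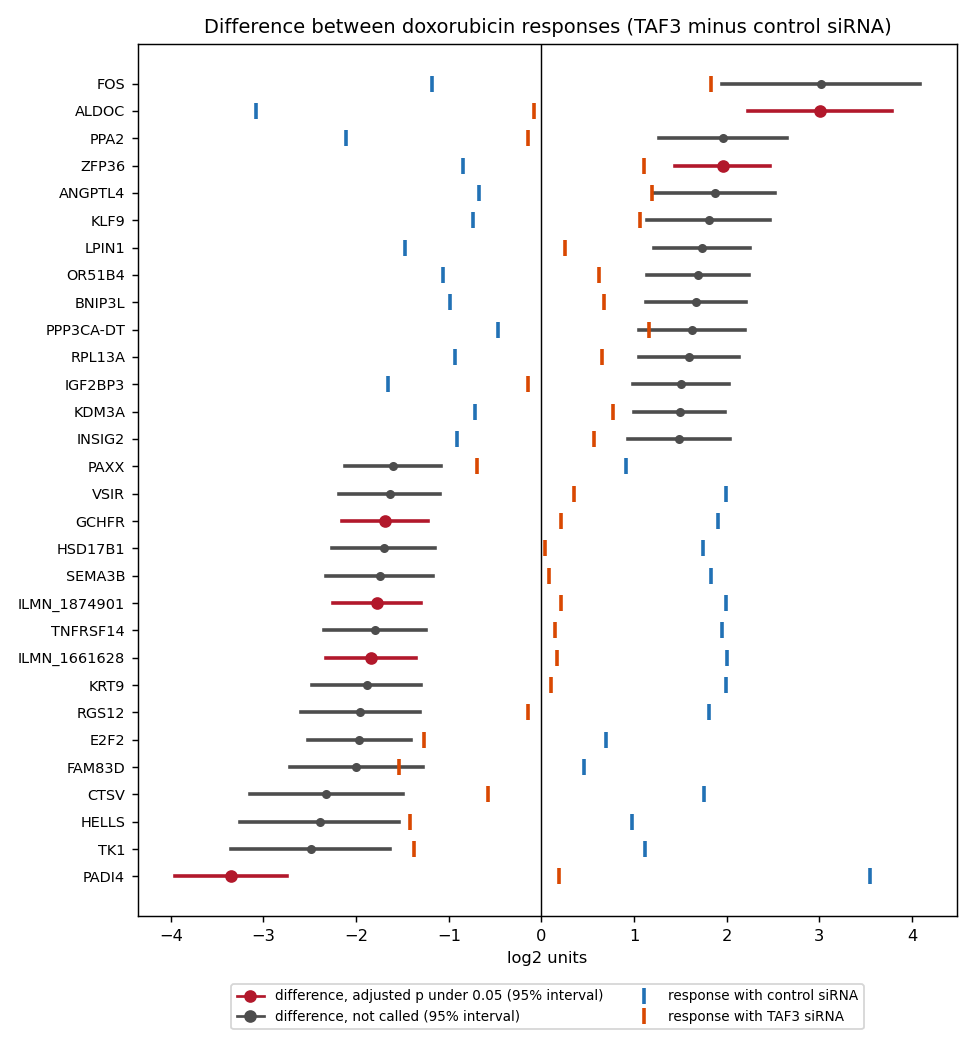
Difference between doxorubicin responses (TAF3 minus control siRNA, log2 units) with its 95% interval for the 6 called features (red) and the 24 named genes with the smallest p that missed the threshold (grey), with the response to each siRNA as a tick (blue for control, orange for TAF3). Intervals lie to the right of 0 from FOS down to INSIG2 and to the left of 0 from PAXX down to PADI4, and PADI4 lies farthest from 0.

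The gene groups that follow were described by how many members had an unadjusted p under 0.05 in each direction and by their median difference, beside the same for all features, of which 7.01% were higher, 7.82% lower and the median 0.02. In 23 of 25 groups no member was called, the exceptions being 1 member each in the hypoxia and immediate early groups. Members were measured on the same 8 arrays and are not independent of each other, and members given without a standard error were chosen after their values were seen. Dividing arrays by a single scale in place of quantile normalization moved the median of all features to between -0.10 and -0.09, and medians below are to be read relative to it. With that shift the medians of the TFIID, H3K4 methyltransferase, Mediator, ribosome biogenesis, oxidative phosphorylation, proteasome and NRF2 groups changed sign, and those of the other 18 groups did not.

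Genes of G2/M and mitosis had the most one-sided differences. Of 74 measured genes, 49 (66.2%) had a lower response with TAF3 siRNA at an unadjusted p under 0.05 and 0 a higher one, 73 of the differences were negative and their median was -0.99. The median response was -0.45 with control siRNA and -1.46 with TAF3 siRNA. The median log2 level of the group on each array, each gene taken relative to its mean over all arrays, was 0.21 and 0.64 untreated and 0.04 and -0.24 with doxorubicin for control siRNA, and 0.53 and 0.66 untreated and -1.07 and -0.71 with doxorubicin for TAF3 siRNA. Both treated TAF3 siRNA arrays lay below all others, while the treated control siRNA arrays lay below their untreated counterparts by less. In RNA from whole cultures, fewer cells in a phase of the cycle and less RNA per cell cannot be told apart.

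FOXM1, the transcription factor of G2/M genes, had signals of 575 and 736 untreated and 834 and 777 with doxorubicin on the control siRNA arrays, and 708 and 853 untreated and 229 and 296 with doxorubicin on the TAF3 siRNA arrays. The treated TAF3 siRNA arrays lay far below all others, and the difference was -1.66 ± 0.27 (limma adjusted p = 0.0733). FOXM1 fell by 1.46 with TAF3 siRNA (adjusted p = 0.00934), and the response with control siRNA was 0.20 (adjusted p = 0.535). NCAPG, a condensin subunit, and NUSAP1, which bundles spindle microtubules, had differences of -1.54 ± 0.26 and -1.55 ± 0.27. CDK1, the kinase that starts mitosis, had one of -1.36, TOP2A, the enzyme doxorubicin traps, one of -1.58, and CCNA2, cyclin A2, one of -1.37. At the other end, CKS2, a CDK1 binding protein, had a difference of 0.01. Without untreated control array 1 the group's median was -0.76, and without untreated control array 3 it was -1.23.

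Genes of DNA replication and nucleotide supply had the next lowest median. Of 62 measured genes, 37 were lower and 0 higher at an unadjusted p under 0.05, and 59 of the differences were negative, with a median of -0.98. The median response was 0.12 with control siRNA and -0.83 with TAF3 siRNA. The median centred levels per array were -0.16 and 0.25 untreated and 0.18 and 0.10 with doxorubicin for control siRNA, and 0.27 and 0.49 untreated and -0.57 and -0.41 with doxorubicin for TAF3 siRNA, so the treated TAF3 siRNA arrays were again the lowest. E2F2 and TK1, described above, had the smallest p of the group. RRM1, the large subunit of ribonucleotide reductase, rose by 1.02 with control siRNA (adjusted p = 0.00529), had a response of -0.41 with TAF3 siRNA (adjusted p = 0.195) and differed by -1.43 ± 0.23 (limma adjusted p = 0.0733). Its signals were 5220.1 and 5943 untreated and 12362 and 9990.0 with doxorubicin on the control siRNA arrays, and 6685 and 7672 untreated and 4946 and 4553 with doxorubicin on the TAF3 siRNA arrays.

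Homologous recombination and Fanconi anaemia genes, which repair breaks and crosslinks in S and G2 phase, showed a similar order. Of 27 measured genes, 13 were lower and 0 higher at an unadjusted p under 0.05, with a median difference of -0.73 and median responses of 0.08 and -0.88. RAD54L, a motor of strand exchange, had a difference of -1.73 ± 0.32, and TOPBP1, which activates the kinase ATR, one of -1.56 ± 0.33.

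Of 21 p53 arrest and feedback targets, 17 rose with control siRNA and 14 with TAF3 siRNA at an adjusted p under 0.05, beside 9.08% and 2.07% of all features. For this group the median response was 1.50 with control siRNA and 1.27 with TAF3 siRNA, and of 21 genes 3 were lower and 1 higher at an unadjusted p under 0.05, with a median of -0.23. That median was 0.0013 without untreated TAF3 array 1, -0.41 without untreated TAF3 array 3 and -0.10 without TAF3 doxorubicin array 4. CDKN1A, the p21 inhibitor of cyclin-dependent kinases, rose by 2.28 with control siRNA (adjusted p = 0.00153) and 2.23 with TAF3 siRNA (adjusted p = 0.00421). Its signals were 6982 and 6102 untreated and 28392 and 31799.9 with doxorubicin on the control siRNA arrays, and 7266 and 5864 untreated and 32362 and 26645 with doxorubicin on the TAF3 siRNA arrays. Treated arrays lay above untreated ones with either siRNA, and the difference was -0.06 ± 0.29 with an interval of -0.71 to 0.60. PPM1D, the phosphatase that switches the damage response off, had a difference of -0.85 ± 0.34, and SESN2, a stress-induced brake on mTORC1 that was below background in untreated control cells, one of -1.15 ± 0.36. CCNG2, cyclin G2, went the other way, with responses of -0.78 and 1.02 and a difference of 1.80 ± 0.34, positive with all 3 of its probes.

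The other p53 groups had lower medians under TAF3 siRNA. Among 24 apoptosis targets, 8 were lower and 0 higher at an unadjusted p under 0.05, with a median of -0.33. Among 23 repair and metabolism targets, 5 were lower and 1 higher, with a median of -0.52. Among 36 signalling targets, 10 were lower and 1 higher, with a median of -0.51. Without TAF3 doxorubicin array 4 the signalling median was -0.27, the repair and metabolism median -0.24 and the apoptosis median -0.18. Without TAF3 doxorubicin array 2 the repair and metabolism median was -0.88, and the apoptosis median was -0.61 without TAF3 doxorubicin array 2 and -0.58 without untreated TAF3 array 3. CDIP1, a pro-apoptotic membrane protein, rose by 2.67 with control siRNA (adjusted p = 0.00153) against 0.62 with TAF3 siRNA (adjusted p = 0.223), and its signals were 77.8 and 90.6 untreated and 665 and 492 with doxorubicin on the control siRNA arrays, and 83.9 and 80.1 untreated and 173 and 94.3 with doxorubicin on the TAF3 siRNA arrays. Its difference was -2.05 ± 0.37 (limma adjusted p = 0.0912), with untreated TAF3 siRNA cells below background. BCL2L1, which encodes the survival protein BCL-XL, had a difference of -0.93 ± 0.20 with both probes negative, and the sodium channel subunit gene SCN3B, below background in both untreated groups, had one of -1.02 ± 0.27.

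SPHK1, sphingosine kinase 1, and SLC12A4, a potassium chloride cotransporter, had differences of -1.60 ± 0.36 and -1.64 ± 0.38, while TNNI3, cardiac troponin I, had one of 0.75 ± 0.23. DDB2, which recognises ultraviolet damage, and HSPA4L, a heat shock protein, had differences of -0.64 ± 0.27 and -0.69 ± 0.29. The treated TAF3 siRNA arrays disagreed in these groups. The median centred levels per array of the repair and metabolism targets were -0.77 and -0.80 untreated and 0.76 and 0.84 with doxorubicin for control siRNA, and -0.37 and -0.67 untreated and 0.79 and 0.05 with doxorubicin for TAF3 siRNA, and without TAF3 doxorubicin array 2 the group's median was -0.88 with 13 of 23 lower, against -0.24 with 1 lower without array 4. Over the 8 fits that leave out 1 array, the members lower numbered 1 to 6 among arrest, 5 to 12 among apoptosis and 4 to 18 among signalling targets, each time the most without TAF3 doxorubicin array 2 and the fewest, or as few, without control doxorubicin array 2.

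**Figure D3:**
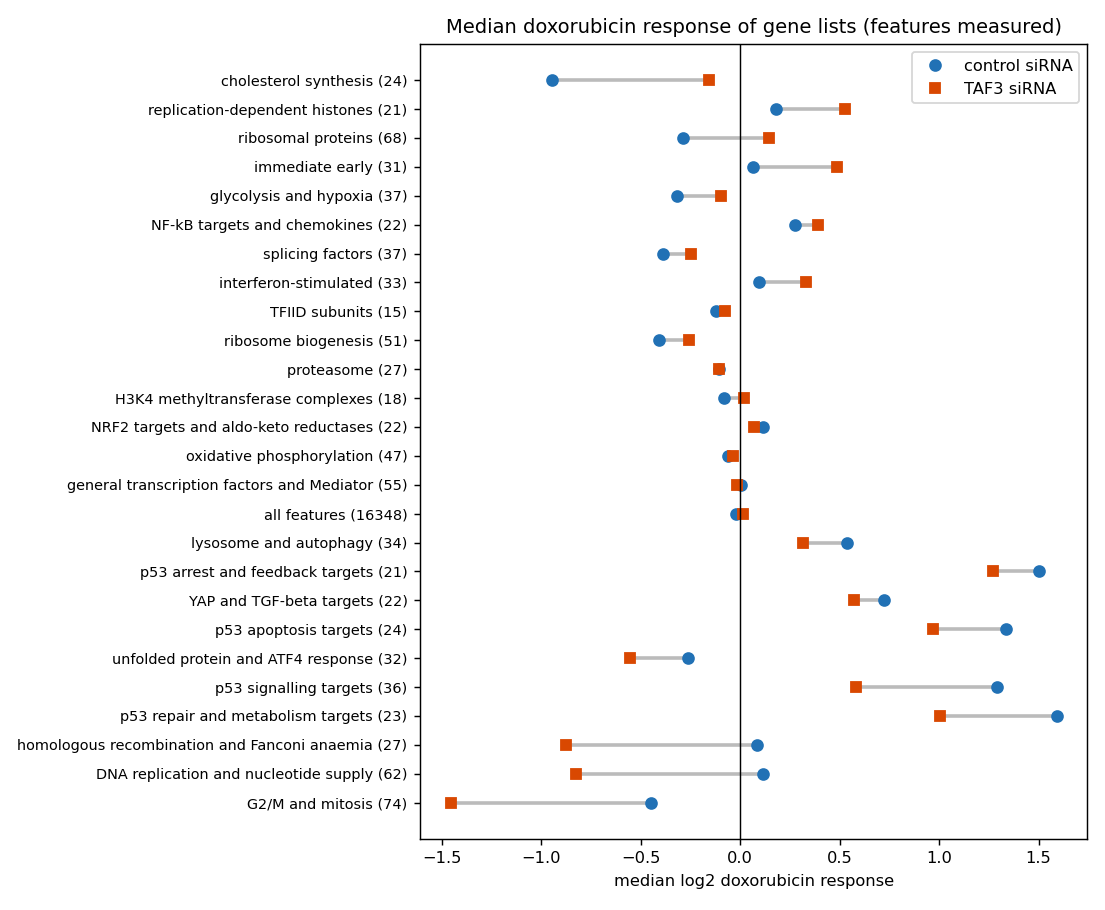
Median log2 doxorubicin response of the 25 gene groups and of all features, with control siRNA (blue circles) and TAF3 siRNA (orange squares) joined by a grey line, ordered by the median difference and with the number of measured genes in parentheses. The orange square lies farthest to the left of its circle for mitosis, replication and recombination and farthest to the right for cholesterol synthesis, and the pairs nearly coincide for the TFIID, Mediator and proteasome groups.

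Cholesterol synthesis, the pathway that SREBP factors drive when sterols are low, had the most positive median. Of 24 measured genes, 11 were higher and 1 lower at an unadjusted p under 0.05, 22 of the differences were positive and the median was 0.64. The median response was -0.95 with control siRNA and -0.16 with TAF3 siRNA. The median centred levels per array were 0.69 and 0.39 untreated and -0.29 and -0.40 with doxorubicin for control siRNA, and 0.01 and 0.05 untreated and -0.24 and -0.07 with doxorubicin for TAF3 siRNA. The untreated control siRNA arrays lay above all others and the treated control siRNA arrays below all others. INSIG1, the sterol-regulated anchor of SCAP, had signals of 3919 and 3565 untreated and 646 and 582 with doxorubicin on the control siRNA arrays, and 1439 and 3404 untreated and 1155 and 1435 with doxorubicin on the TAF3 siRNA arrays. It fell by 2.66 with control siRNA (adjusted p = 0.00165), its TAF3 siRNA response was -0.63 (adjusted p = 0.278), and the difference was 2.03 ± 0.43 (limma adjusted p = 0.0991).

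DHCR7, which makes cholesterol in the last step of its synthesis, and SCD, the stearoyl-CoA desaturase, had differences of 1.62 ± 0.32 and 1.47 ± 0.30 (limma adjusted p = 0.0928 and 0.0935). HMGCS1, which makes the substrate of HMG-CoA reductase, had one of 1.98, and SQLE, squalene epoxidase, one of 1.47. ACAT2, the acetoacetyl-CoA thiolase, was the 1 member lower at an unadjusted p under 0.05, at -0.87.

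Glycolysis and hypoxia genes, among them targets of HIF1A, shared this direction. Of 37 measured genes, 9 were higher and 1 lower at an unadjusted p under 0.05, with ALDOC as the 1 called member, and the median was 0.34. ANKRD37, a small ankyrin repeat protein, had a difference of 2.94, P4HA1, a prolyl hydroxylase of collagen, one of 1.55, and NDRG1, a stress-induced gene, one of 1.44. P4HA2, a paralogue of P4HA1, was the 1 lower member, at -1.04. The median centred levels per array were 0.33 and 0.11 untreated and -0.20 and -0.08 with doxorubicin for control siRNA, and -0.13 and 0.06 untreated and 0.10 and -0.10 with doxorubicin for TAF3 siRNA, and untreated control array 1 was the highest. Without that array the median was 0.22.

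Ribosomal protein genes had small and mostly positive differences. Of 68 measured genes, 24 were higher and 0 lower at an unadjusted p under 0.05, 60 of the differences were positive and the median was 0.44, which stayed at 0.42 under both other scalings. The median response was -0.29 with control siRNA and 0.14 with TAF3 siRNA. RPL13A of the large subunit had signals of 5202 and 5212 untreated and 2526 and 2972 with doxorubicin on the control siRNA arrays, and 4021 and 4002 untreated and 5139.6 and 5911 with doxorubicin on the TAF3 siRNA arrays and a difference of 1.59 ± 0.24 (limma adjusted p = 0.0733). RPL7 and RPL21 had differences of 1.13 ± 0.22 and 1.77 ± 0.38. These genes have many pseudogenes, and binding of their RNA to the probes was not tested. Without control doxorubicin array 2, 11 of 68 were higher, and without TAF3 doxorubicin array 4, 14 were.

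The immediate early genes, which serum and stress switch on within minutes, held 10 members higher at an unadjusted p under 0.05 and 0 lower among 31 measured, with ZFP36 as the 1 called member and a median of 0.36. DUSP1, a phosphatase of MAP kinases, had signals of 1423 and 1065 untreated and 1528 and 1217 with doxorubicin on the control siRNA arrays, and 995 and 1098 untreated and 2759 and 4520.1 with doxorubicin on the TAF3 siRNA arrays. It rose by 1.92 with TAF3 siRNA (adjusted p = 0.0105) against 0.07 with control siRNA (adjusted p = 0.904), a difference of 1.86 ± 0.38 (limma adjusted p = 0.0991). EGR1, a zinc finger factor, had a difference of 1.98, JUNB, an AP-1 subunit, one of 1.17, NR4A2, an orphan nuclear receptor, one of 1.43, and JUN one of 1.63. ATF3, in contrast, rose by 2.03 and 1.98 with the 2 siRNAs, a difference of -0.04 ± 0.28.

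Among 22 NF-kB targets and chemokines, 6 were higher and 1 lower at an unadjusted p under 0.05, with a median of 0.25, and 3 were higher without control doxorubicin array 2 or untreated control array 1. Without untreated TAF3 array 3 the median was 0.06. CXCL8, encoding the neutrophil chemokine interleukin 8, had the largest positive difference of all features. Its signals were 3477 and 1682 untreated and 1596 and 1704 with doxorubicin on the control siRNA arrays, and 1004 and 348 untreated and 3265 and 8223 with doxorubicin on the TAF3 siRNA arrays. Replicates varied widely, and untreated levels also differed, with both control siRNA arrays above both TAF3 siRNA arrays. The difference of 3.87 ± 0.84 had an interval of 1.98 to 5.77 (limma adjusted p = 0.0991), with both probes positive. IER3, a survival gene, and SOD2, the mitochondrial superoxide dismutase, had differences of 1.05 ± 0.24 and -1.08 ± 0.26.

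Several genes with a large rise under control siRNA had a smaller response under TAF3 siRNA and wide intervals. LAMP3, a lysosomal membrane protein, had signals of 176 and 267 untreated and 3790.0 and 4052 with doxorubicin on the control siRNA arrays, and 239 and 249.9 untreated and 806 and 237 with doxorubicin on the TAF3 siRNA arrays. The treated TAF3 siRNA arrays disagreed, 1 lying above and 1 just below the untreated ones. LAMP3 rose by 4.10 with control siRNA (adjusted p = 0.00163) against 0.91 with TAF3 siRNA (adjusted p = 0.276), a difference of -3.19 ± 0.62 (limma adjusted p = 0.0928). CBS, cystathionine beta-synthase, had responses of 4.33 and 1.52 and a difference of -2.81 ± 0.68, with some signals below background that give only bounds. Its difference ran from -3.77 to -1.85 with 1 array left out. Other processing choices that keep all arrays gave limma adjusted p-values from 0.0705 to 0.174. AKR1B10, an aldo-keto reductase, rose with either siRNA, by 4.12 (adjusted p = 0.00153) and 2.16 (adjusted p = 0.0161), with a difference of -1.96 ± 0.51, while AKR1C3, whose sequence is close to that of other AKR1C genes, rose with TAF3 siRNA by 1.71 (adjusted p = 0.0146) and had a difference of 1.61 ± 0.39.

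**Figure D4:**
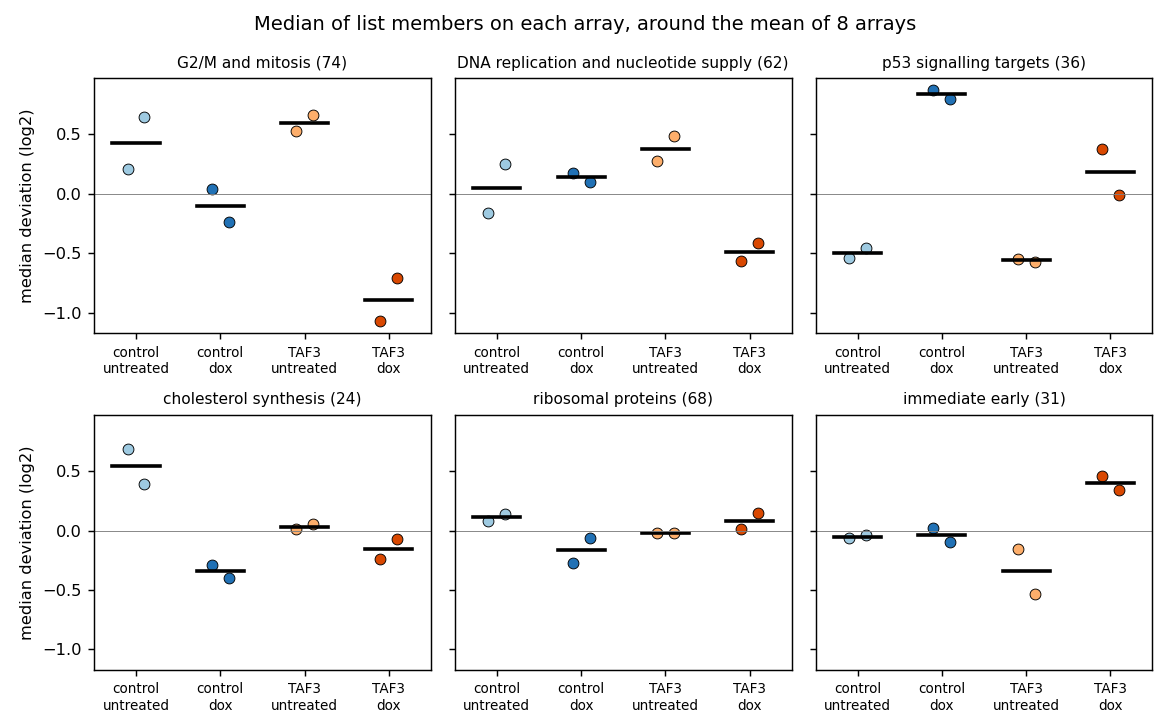
Median log2 level of 6 gene groups on each of the 8 arrays, each gene taken relative to its mean over all arrays, with 1 point per array, a bar at the mean of the 2 arrays of a group and the number of genes in parentheses. The treated TAF3 siRNA arrays are the lowest for mitosis and replication, and in cholesterol synthesis the untreated control siRNA arrays are the highest.

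Of 15 measured TFIID subunits, 0 were higher and 0 lower at an unadjusted p under 0.05, with a median of 0.12, and TAF13, with the smallest p, had a difference of 0.45 ± 0.23. TAF4B and TAF5 had differences of 0.55 ± 0.35 and -0.57 ± 0.37, with intervals of -0.24 to 1.33 and -1.41 to 0.27. The median of the TFIID group ran from -0.05 without untreated control array 1 to 0.24 without untreated control array 3. Of 18 genes of the complexes that methylate lysine 4 of histone H3, 1 was higher and 0 lower, with a median of 0.07, and the higher one was KDM6A, a demethylase subunit, at 0.54 ± 0.23. The methyltransferase genes KMT2A and KMT2D had differences of 0.69 ± 0.31 and 0.47 ± 0.23, and KMT2D was below background in untreated TAF3 siRNA cells. Of 55 general transcription factor and Mediator genes, 3 were higher and 2 lower, with a median of 0.05. The Mediator subunit MED7 had a difference of 0.76 ± 0.20. The H3K4 methyltransferase median ran from -0.06 without control doxorubicin array 4 to 0.21 without control doxorubicin array 2. The Mediator group's median ran from -0.08 without untreated TAF3 array 1 to 0.11 without untreated control array 1.

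The remaining groups had medians between -0.33 and 0.47. Of 32 unfolded protein and ATF4 response genes, 7 were lower and 1 higher at an unadjusted p under 0.05, with a median of -0.33, and the transcription factor ATF5 had a difference of -1.18 ± 0.28. The median of this group was -0.05 without untreated TAF3 array 3, and 12 members were lower without untreated TAF3 array 1. Of 22 YAP and TGF-beta targets, 5 were lower and 2 higher, with a median of -0.27, which was -0.43 without untreated TAF3 array 3. ID1, an inhibitor of basic helix-loop-helix factors, had a difference of 1.20 ± 0.28, and F3, tissue factor, one of -1.10 ± 0.30. Of 21 replication-dependent histone genes, 3 were higher and 0 lower, with a median of 0.47, and H2BC5 rose with either siRNA, by 1.75 (adjusted p = 0.0119) and 3.04 (adjusted p = 0.00673). Without untreated control array 3, 10 of 21 histone genes were higher, and without either control siRNA array with doxorubicin or without untreated control array 1 only 1 was. Their median was 0.23 without untreated control array 1. These RNAs mostly lack a poly(A) tail.

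Of 33 interferon-stimulated genes, 3 were higher and 2 lower, with a median of 0.14. That median was -0.23 without untreated control array 1 and 0.55 without untreated control array 3, and the group's median centred level was 0.62 on array 1 and -0.15 on array 3, so 1 array decides its direction. Lysosome and autophagy genes had 6 lower and 3 higher of 34 (median -0.15), with 2 lower without control doxorubicin array 2 or TAF3 doxorubicin array 4 and medians from -0.30 to -0.09 over the fits that leave out 1 array. Splicing factors had 0 lower and 5 higher of 37 (median 0.19). Ribosome biogenesis genes had 0 lower and 4 higher of 51 (median 0.10), and oxidative phosphorylation genes 1 and 5 of 47 (median 0.06). The proteasome had 0 lower and 1 higher of 27 (median 0.07), and NRF2 targets and aldo-keto reductases 2 and 3 of 22 (median 0.06). The median of the NRF2 group was -0.23 without untreated TAF3 array 3 and 0.30 without untreated TAF3 array 1. Among splicing factors and ribosome biogenesis genes 6 and 8 were higher without TAF3 doxorubicin array 2, against 0 and 1 without array 4.

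For many features the difference lay within a stated limit, but nearly all of these had a small average response. For 10318 features, of which 7211 were named genes, the 95% interval of the difference lay within 1 log2 unit of 0. For 78 it lay wholly beyond that limit. Of the 10318, 10237 had an average response of both siRNAs between -1 and 1. Of 421 features with an average rise of 1 or more, 52 lay within the limit, and of 242 with such a fall, 29. The median half-width of the interval was 0.587. Among genes inside the limit, those with the largest average rise were CDKN1A, ATF3, CCN1, FBXO32, OPTN and XPC. XPC, which recognises damage in nucleotide excision repair, rose by 1.59 with control siRNA (adjusted p = 0.00154) and 1.71 with TAF3 siRNA (adjusted p = 0.00421), with a difference of 0.12 ± 0.23 and an interval of -0.41 to 0.65. OPTN, an autophagy receptor, rose by 1.80 and 1.57, with an interval of -0.79 to 0.32. CCN1, a matrix protein, and FBXO32, an F-box protein of ubiquitin ligases, had intervals of -0.90 to 0.88 and -0.87 to 0.69. The probes of CDKN1A, ATF3 and FBXO32, and of SKP2 and MTSS1 among the genes that follow, did not all share a sign.

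Those with the largest average fall were BORA, SKP2, CLCC1, ARHGAP19, MTSS1 and CENPX. BORA, which activates Aurora A kinase, fell by 1.66 with control siRNA (adjusted p = 0.00534) and by 1.80 with TAF3 siRNA (adjusted p = 0.0115), with an interval of -0.99 to 0.71. SKP2, the F-box protein that marks p27 for destruction, fell by 1.61 and 1.63, with an interval of -0.88 to 0.85. For CLCC1, ARHGAP19, MTSS1 and CENPX the differences lay between -0.28 and -0.19.

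The difference was also set against the average response of both siRNAs, which carries the same control and TAF3 siRNA arrays and is given as a description. For 421 features with an average rise of 1 log2 unit or more, the median response was 1.72 with control siRNA and 0.97 with TAF3 siRNA, the median difference was -0.76, and 169 (40.1%) were lower and 11 (2.61%) higher at an unadjusted p under 0.05. For 242 features with an average fall of 1 or more, the median responses were -1.28 and -1.16 and the median difference 0.12, with 62 (25.6%) higher and 40 (16.5%) lower. With control siRNA 1484 features (9.08%) rose and 1308 (8%) fell with doxorubicin at an adjusted p under 0.05, against 339 (2.07%) and 421 (2.58%) with TAF3 siRNA.

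Of the 1146 features higher at an unadjusted p under 0.05, the 2 responses had opposite signs in 737, the control siRNA response was the larger in size in 796, control siRNA with doxorubicin was the lowest of the 4 groups in 906 and TAF3 siRNA with doxorubicin the highest in 564. Of the 1278 lower ones, signs were opposite in 617, the control siRNA response was the larger in 878, control siRNA with doxorubicin was the highest group in 978 and TAF3 siRNA with doxorubicin the lowest in 607. Over all 16348 features the signs were opposite in 5520 and the control siRNA response was the larger in 9483. The features were picked by a difference of that sign, which by itself favours opposite signs and these extreme groups. The extreme groups were not counted over all features. Detection on 2 arrays sufficed to enter the test. Of the lower features 57 were below background in 3 groups, of the higher 8, and of all features 347. No group was below background in 85.6%, 94.9% and 81.5% of them.

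**Figure D5:**
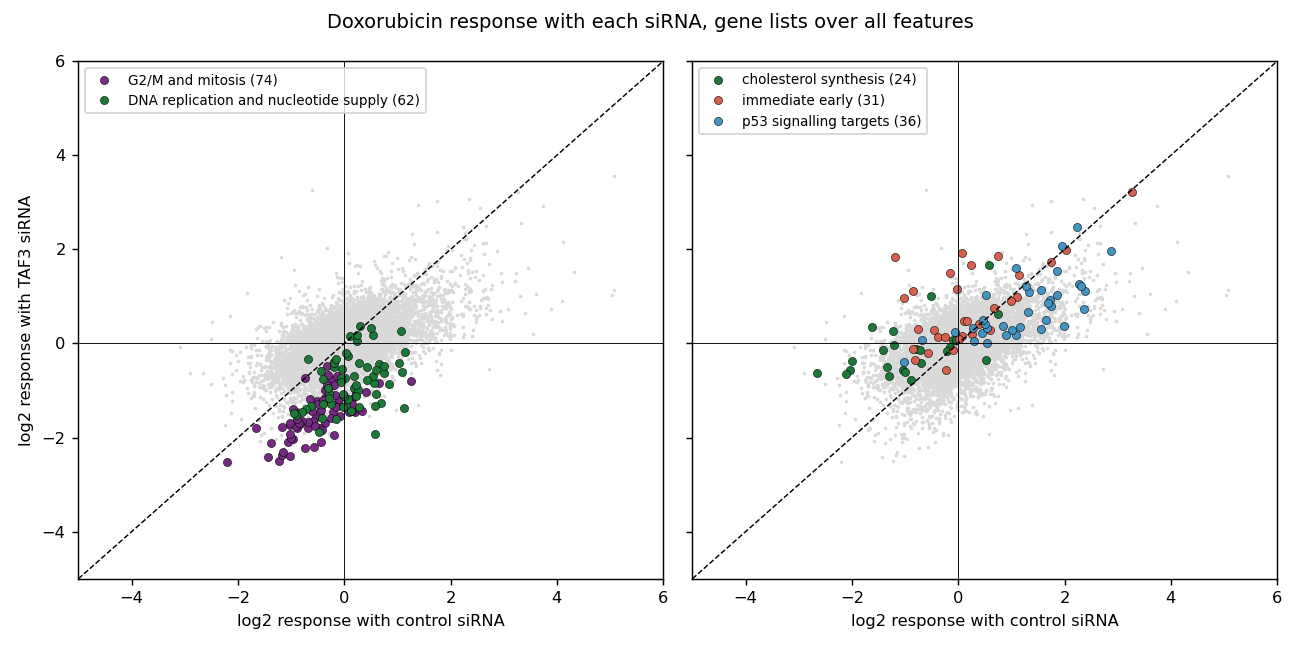
Doxorubicin response (log2) with control siRNA on the horizontal axis and with TAF3 siRNA on the vertical axis, 1 grey point per feature in both panels, with a dashed line of equal responses and members of 5 gene groups in colour. Nearly all mitotic and replication genes lie below the line (left), most cholesterol synthesis genes lie above it at the left, and p53 signalling targets lie mostly below it at the right.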

How the data were processed

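RNA was measured on 8 Illumina HumanHT-12 v3 arrays. The authors deposited linear probe intensity values for 48803 probes. The submitters' processing notes name BeadStudio, with its version and any normalization not given in the sources used here. The median signal was 73.9 on each of the 8 arrays, below every array's background threshold (81.4 to 87.4). The deposited values thus shared a common median, so log2 of them and median centring were not separate checks of the scaling. A second deposited table gives detection p-values, stored as 1 minus p, in columns that name no sample. They served only to count, per probe, the arrays with detection, and the 8 signal columns beside them were not used. Background thresholds per array were read from the labelled signals with these counts, to within 0.194 signal units.

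Signals were corrected with normexp (offset 50), quantile normalised and taken to log2. The planned neqc could not be run without control probes. A detection p under 0.05 in 2 or more arrays was required, which 20628 probes met, and the brightest probe stood for a gene, which gave 16348 features, 12250 of them named genes. Of all probes, 28098 had 1 gene symbol, 13 several and 20692 none listed. Group means were fitted with limma 3.58.1 in R 4.3.3 (degrees of freedom 4 residual, 4.98 prior). The p-values were adjusted after Benjamini and Hochberg over all features, and ± gives the standard error. The fit was run on simulated data with independent normal noise and no array effects. That run cannot show how the calls behave on these arrays. For a group with no array above background, a fold is a bound against the higher of threshold and signal.

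Named were TAF3, CDKN1A, the called features, the 12 genes with the smallest p in each direction that were not called, up to 3 genes per list by p, and the 6 largest shared responses each way with an interval within 1 log2 unit of 0. The comparison, the 25 gene lists, the marker lists and the tests were chosen with earlier results of these data known, and of 959 list genes 16 stand in more than 1 list. Alternatives covered the scaling, offset, probe filter, probe rule, variance model, array weights, replicate block and each array left out. Promoter sequences are RefSeq's. The precision is limited by 2 arrays per group.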

Additional observations from a re-analysis of the deposited data

Results flagged for a closer look

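The 6 results that follow met the test of a difference between responses itself, and each is given as a value. The response to doxorubicin under TAF3 siRNA lay below that under control siRNA by the interaction test for PADI4 (-3.35), for the unlisted probes ILMN_1661628 (-1.84) and ILMN_1874901 (-1.78), and for GCHFR (-1.69). It lay above for ALDOC (3.01) and ZFP36 (1.95). All values are log2 differences from limma over 2 arrays per group. PADI4 was called in all 10 fits with another processing choice that measured it and in 3 of the 8 fits that left out 1 array, while each of the other 5 was called in 2 of those 8.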

How the results depend on the processing

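Against 6 called features, 2 higher and 4 lower, limma called 1 in all, 0 higher and 1 lower, on log2 of the deposited signals and after median centring. Without a filter on dim probes it called 22 (8 higher, 14 lower) of 39557 tested. With probes detected on all 8 arrays it called 0 (0 higher, 0 lower) of 12071 tested, where 1854 had an unadjusted p under 0.05. That filter removed PADI4, ILMN_1661628 and ILMN_1874901, so these features were not tested there. With a trend and robust variance it called 90 (22 higher, 68 lower). With an offset of 16 it called 5 (1 higher, 4 lower). Testing every kept probe gave 9 (3 higher, 6 lower), quantile normalization without background correction 6 (2 higher, 4 lower), the mean of a gene's probes 7 (2 higher, 5 lower) and array weights 6 (2 higher, 4 lower). The cause of these shifts was not tested. Leaving out 1 array gave 0 to 324 called features, 0 to 102 higher and 0 to 222 lower; a group left with 1 array is assumed to vary like the others.

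With the replicate number as a block 2 features were called, 1 higher and 1 lower, and 1 of them, PADI4, was among the 6. The numbers are shared only between siRNAs, and deviations of same-numbered arrays correlated at -0.0256 for the untreated and 0.212 for the doxorubicin arrays, so nothing shows that a number pairs samples. Over all alternatives run, none of the 96 called, near-threshold and list genes and features changed sign. This leaves aside TAF3 and the genes with a shared response. The 96 were picked by the smallest p on these same arrays, so a kept sign was likely in advance. The share of all features that kept their sign was not counted. Adjusted p-values over the alternatives that keep all arrays ran from 0.000990 to 0.0226 for PADI4, 0.0103 to 0.0951 for ALDOC, 0.0206 to 0.0946 for ZFP36, 0.0206 to 0.0876 for GCHFR, and 0.0103 to 0.0822 for either unlisted probe. In the same alternatives the difference ran from -4.03 to -3.35 for PADI4, 2.79 to 3.07 for ALDOC and 1.69 to 1.99 for ZFP36. For GCHFR it ran from -2.10 to -1.69, for ILMN_1661628 from -2.30 to -1.84 and for ILMN_1874901 from -2.30 to -1.78. For the features with a negative difference, no alternative gave a smaller size than the main fit.

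Signals below background give only bounds, which touches TAF3, PADI4, ILMN_1874901, TNFRSF14, SESN2, CDIP1, SCN3B, CBS and KMT2D.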
